A study of Mus musculus with 9 samples.

Results

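The non-collagen matrix of mouse pancreatic islets, in which the insulin-secreting beta cells lie, was followed through 39 genes. The genes were chosen by name, with earlier results of these data known. They comprise laminins, other basement membrane proteins, matricellular proteins, elastic fibre genes, matrix proteases with their inhibitors, and integrins. All 39 were found among the 52459 gene symbols of the deposited count table, and 38 passed the filter on low counts. The exception was the protease inhibitor gene Timp1.

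Islet RNA was sequenced from 3 groups of mice at 12 weeks of age with 3 libraries per group. The groups were db/db, homozygous for a mutant leptin receptor allele (Leprdb) and widely used as a model of obesity and diabetes, db/+ heterozygotes, and wild type (WT). All 3 groups carry the same strain label, on the BKS background. No drug or diet is named. Whether a library came from 1 mouse or from several is not labelled, and p values therefore measure the spread between libraries, which may be partly technical. Islets hold endothelial cells, pericytes and other cells as well as endocrine cells, and in such bulk samples a change in the number of cells of a type cannot be told apart from a change in RNA per cell.

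A basement membrane is a thin sheet of laminin, type IV collagen, nidogen and the heparan sulphate proteoglycans perlecan and agrin. Laminins are trimers of an alpha, a beta and a gamma chain, and integrins, dimers of an alpha and a beta subunit, are their receptors on cells. In mouse islets much of the basement membrane surrounds the capillaries, and beta cells adhere to it through integrins that contain the beta 1 subunit. The interstitial matrix, made largely by fibroblasts, stellate cells and pericytes, holds fibronectin, proteoglycans and elastic fibres, and is turned over by metalloproteinases that tissue inhibitors (TIMPs) restrain.

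Library totals were 8860024 to 11734886 counts. Levels are CPM, counts per 1000000 of the TMM-normalised library, and 3 counts in a library equals 0.238 to 0.412 CPM. Several libraries stood apart from their group. Gm42418 and Lars2, which overlap ribosomal RNA loci, took 17.9% of db/db 1 and 13.3% of db/db 2, against 0.0558% of db/db 3, at most 0.0237% in db/+, and 1.89% to 2.58% in WT. Xist stood at 308, 948 and 858 CPM in db/db, at most 0.506 CPM in db/+, and 565, 0.722 and 596 CPM in WT, and 4 Y-linked genes summed to 176, 1.11 and 0.108 CPM in db/db, 373 to 417 CPM in db/+, and 219, 343 and 235 CPM in WT, so the sex makeup of the libraries differed between groups. Both kinds of transcript were thus present in db/db 1, WT 1 and WT 3. The 22 acinar markers summed to 19450 to 54422 CPM in db/db, 16044 to 36615 CPM in db/+ and 6941 to 13116 CPM in WT, with the highest value in db/db 1. Islet endocrine genes summed to 125489 to 163086 CPM in db/db, 133187 to 148807 CPM in db/+ and 112776 to 143933 CPM in WT.

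Of the 38 tested genes, 24 were higher in db/db than in WT and 1 was lower, against 21.8% higher and 19.9% lower among all 16826 tested genes. Genes were called at an adjusted p under 0.05, by edgeR's quasi-likelihood F test and the Benjamini-Hochberg adjustment over every gene tested. Values written below as a number ± SE, with an adjusted p, are log2 fold changes of this test. The median log2 fold change was 1.17 for the 38 genes and 0.01 for all tested genes. A total of 19 genes were higher by at least 2-fold, against a background of 9.21%, and every db/db library lay above every WT library for 25 genes and below for 1, against 26.2% and 25.3%. The largest changes were in fibronectin, the elastic fibre genes and the gelatinase Mmp2, and the lower gene was the integrin subunit Itgav.

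Relative to db/+, 27 of 38 genes were higher in db/db and 1 was lower, against backgrounds of 20.6% and 19.7%. The median log2 fold change was 1.28, against 0.01 for all tested genes. Here 20 genes were higher by at least 2-fold, against 8.55% of all tested genes. Every db/db library lay above every db/+ library for 31 genes and below for 1, against 26.2% and 26%. Both comparisons use the same db/db libraries. A total of 21 genes were higher in db/db in both, Itgav was lower in both, and 7 passed in neither comparison (Dcn, Lama2, Lama4, Loxl2, Lum, Timp3 and Tnc). Between db/+ and WT, 1 gene was lower in db/+ and none was higher, against backgrounds of 0.82% and 0.606%. At an unadjusted p under 0.05, 5 of the 38 genes were lower in db/+ and 0 were higher, against 8.04% and 7.53% of all tested genes, and limma-voom and DESeq2 also called none higher.

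**Figure D1:**
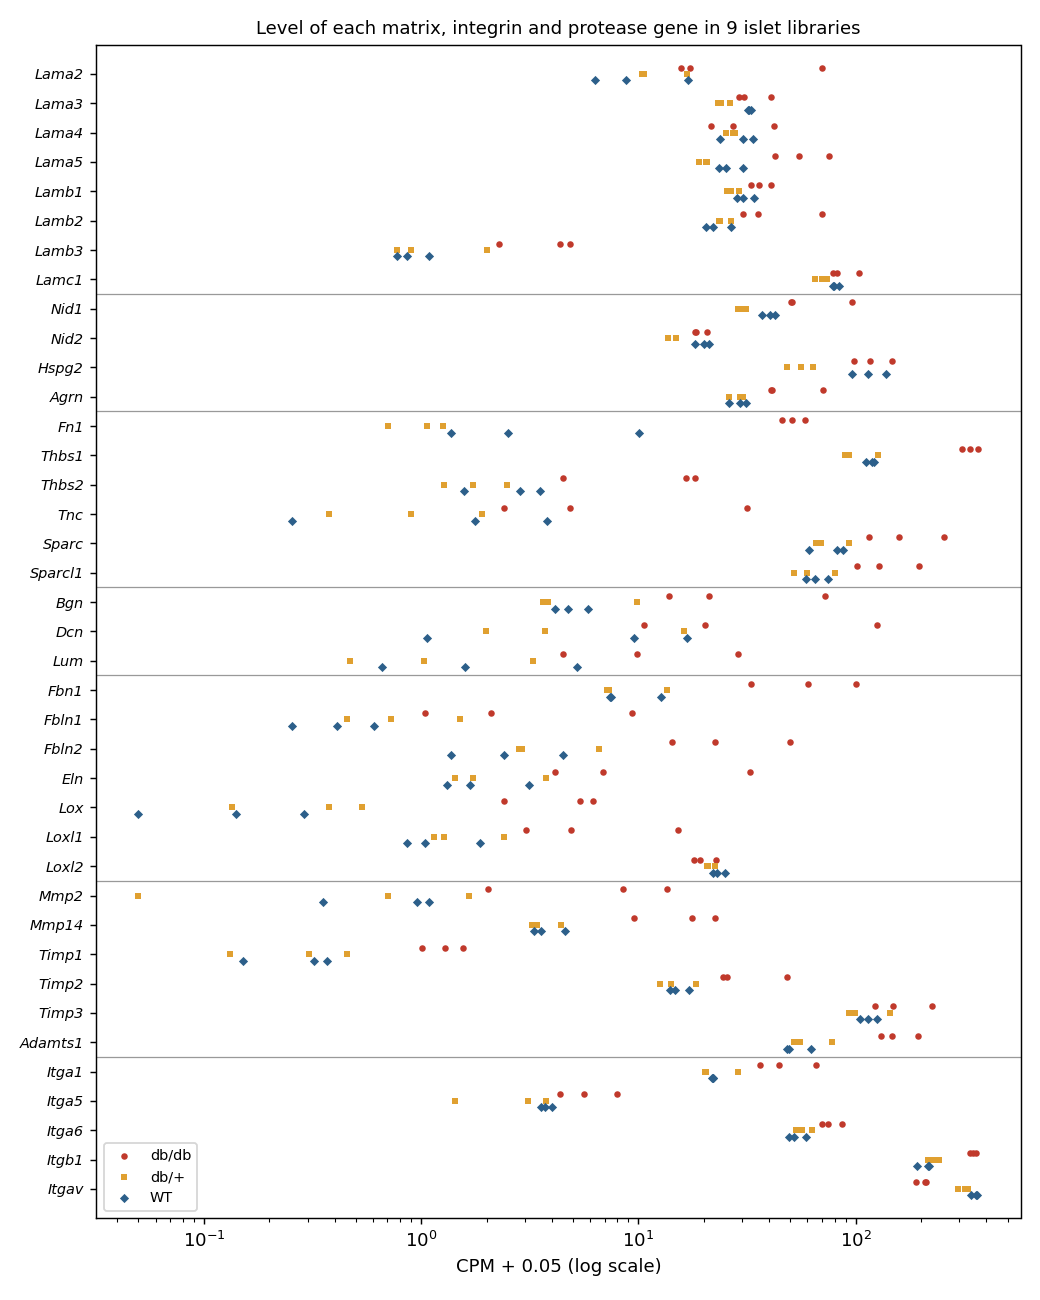
CPM plus 0.05 on a log axis for each of the 39 genes, grouped by role from laminins at the top to integrins at the bottom. Points are single libraries of db/db (circles), db/+ (squares) and WT (diamonds); for Fn1 the 3 db/db points lie between 45.7 and 58.5 CPM, above all others.

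The summed level of the 39 genes was 3337, 2179 and 2366 CPM in db/db, 1626, 1399 and 1347 CPM in db/+, against 1672, 1575 and 1528 CPM in WT. All db/db libraries were above all others, and db/db 1 was the highest. Markers of several cell types were also higher in db/db than in WT, against 21.8% higher and 19.9% lower among all tested genes. Higher calls were made for 15 of 22 acinar markers and 11 of 15 tested duct markers. For macrophage markers the count, 3 of 15, was near the share of all tested genes. Against db/+ these counts were 1 of 22 acinar, 10 of 15 duct and 6 of 15 macrophage markers, with 20.6% of all tested genes higher. Among 17 tested markers of stellate cells, fibroblasts and pericytes, 10 were higher in db/db than in WT and the others did not pass, and the whole list summed to 578 to 885 CPM in db/db, 240.2 to 302 CPM in db/+ and 269.5 to 325 CPM in WT. In that list the pericyte gene Rgs5 averaged 437 ± 55.9 CPM in db/db, 171 ± 15.9 CPM in db/+, against 176 ± 19.1 CPM in WT. Of 19 endothelial markers, 11 were higher and the others did not pass, with sums of 929 to 1297 CPM in db/db, 688 to 775 CPM in db/+ and 734 to 802 CPM in WT. Duct markers summed to 1121 to 1186 CPM in db/db, 727 to 859.7 CPM in db/+ and 582 to 719.6 CPM in WT, and macrophage markers to 198 to 336 CPM in db/db, 123 to 154 CPM in db/+ and 122 to 176 CPM in WT. None of these lists contains any of the 39 genes, and the part of these cells in the results was not tested. Adipocyte markers did not exceed 0.555 CPM in sum in any library, with Adipoq at 0 throughout. Mesothelial markers summed to at most 18.9 CPM in db/db, against 26.5 CPM in WT, with Lrrn4, Bnc1 and Muc16 at 0. Schwann cell and neuron markers (115 to 128 CPM in sum in db/db, 104 to 131 CPM in WT) overlapped between groups, as did lymphocyte markers, which reached 31.1 CPM in db/db 1.

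Laminin chains changed unequally. Against WT, 3 of 8 were higher in db/db and the other 5 did not pass, with 21.8% of all tested genes higher. Lama5 (chromosome 2, 180176373 to 180225904, GRCm38, the assembly of mm10, as for all positions here) encodes the laminin alpha chain typical of mature vascular and epithelial basement membranes. It stood at 75.5, 42.5 and 54.6 CPM in db/db, 19.00, 20.3 and 20.7 CPM in db/+, against 30.3, 25.3 and 23.4 CPM in WT. All db/db libraries exceeded all others, and the log2 fold change was 1.12 ± 0.18, adjusted p = 0.00068, against WT and 1.52 ± 0.18, adjusted p = 9.98e-05, against db/+. Lamb3, a beta chain of epithelial anchoring complexes, was low, at 4.80, 2.23 and 4.31 CPM in db/db, 0.728, 0.844 and 1.96 CPM in db/+, against 1.03, 0.722 and 0.813 CPM in WT. It rose by 2.12 ± 0.43, adjusted p = 0.00137, against WT, and the groups did not overlap. Lamb3 passed the count filter only with its db/db libraries counted, so its entry to the test depended on them. Lamb2, a beta chain of vascular and muscle basement membranes, reached 69.7, 30.2 and 35.5 CPM in db/db, 26.8, 23.8 and 23.5 CPM in db/+, against 26.7, 22.03 and 20.5 CPM in WT. The db/db values were all higher than the WT ones, but db/db 1 was far above the other db/db libraries. Its log2 fold change was 0.95 ± 0.30, adjusted p = 0.0347, against WT and 0.86 ± 0.30, adjusted p = 0.0501, against db/+, the second just outside the threshold and past it when any db/db library was left out. Leaving out any db/+ or WT library ended the call against WT (range of adjusted p 0.00636 to 0.109), and without db/db 1 the log2 fold change was 0.51.

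Lama3, Lamb1 and Lamc1 passed against db/+ but not against WT, and none of these passed between db/+ and WT. Lama3, the alpha chain that joins Lamb3 in epithelial laminin, had 40.8, 30.5 and 28.99 CPM in db/db, 26.3, 23.1 and 23.9 CPM in db/+, against 32.9, 32.2 and 31.8 CPM in WT. Its values in db/db overlapped WT (0.04 ± 0.12, adjusted p = 0.805) and lay above db/+ (0.45 ± 0.12, adjusted p = 0.00994). Lamb1 had 40.6, 32.95 and 35.7 CPM in db/db, 29.02, 25.5 and 26.6 CPM in db/+, against 30.2, 33.9 and 28.4 CPM in WT, with 0.24 ± 0.11, adjusted p = 0.0879, against WT and 0.43 ± 0.11, adjusted p = 0.00574, against db/+. Lamc1, the gamma chain shared by most laminins, had 104, 78.3 and 81.9 CPM in db/db, 69.6, 73.5 and 64.7 CPM in db/+, against 84.2, 78.9 and 79.7 CPM in WT. The Lamc1 call against db/+ (0.34 ± 0.10, adjusted p = 0.0136) ended without db/db 1 or db/+ 3 (range of adjusted p 0.00679 to 0.0626). Neither Lama4, the main alpha chain of endothelial cells, nor Lama2, the alpha chain of muscle and nerve laminins, passed the test. Lama4 averaged 30.3 ± 10.5 CPM in db/db, 26.7 ± 1.35 CPM in db/+, against 29.1 ± 5.03 CPM in WT (SD, n = 3 each, as for all averages). For Lama2, chosen after its values were seen, db/db 1 alone was high, with 70.1, 17.2 and 15.7 CPM in db/db, 16.7, 10.3 and 10.6 CPM in db/+, against 16.9, 6.23 and 8.74 CPM in WT.

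Per kilobase of exon, Lama5 made up 36.6 ± 5.35% of the 4 laminin alpha chains in db/db, 23.3 ± 2.55% in db/+ and 26.00 ± 0.3% in WT (SD, n = 3 each). The lowest db/db share, 31.3%, was above the highest WT share of 26.3%. Lama4 made up 17.9 ± 1.71% in db/db, 29.3 ± 1.08% in db/+ and 27.1 ± 2.48% in WT, again without overlap between db/db and the others. The CPM of Lama4 itself overlapped between db/db and WT. Lamb2 was the main beta chain in each group, with 62.2 ± 7.12% in db/db, 59.4 ± 1.95% in db/+ and 55.3 ± 3.48% in WT of the 3 beta chains, shares that overlapped.

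Among the other basement membrane proteins, Agrn and Nid1 were higher in db/db than in WT. Agrn encodes agrin, best known for clustering receptors at the nerve to muscle synapse. It had 70.8, 40.5 and 41.2 CPM in db/db, 26.03, 30.1 and 29.4 CPM in db/+, against 31.1, 29.4 and 26.01 CPM in WT, without overlap (0.81 ± 0.20, adjusted p = 0.00895, against WT and 0.83 ± 0.20, adjusted p = 0.00808, against db/+). Nid1, which links laminin to type IV collagen, had 96.1, 50.8 and 50.3 CPM in db/db, 31.4, 28.8 and 29.4 CPM in db/+, against 42.4, 37.02 and 40.3 CPM in WT. Here too every db/db library was higher, db/db 1 most of all, with 0.71 ± 0.23, adjusted p = 0.0399, against WT and 1.13 ± 0.24, adjusted p = 0.00592, against db/+. The Nid1 call against WT ended when any db/+ or WT library was left out (range of adjusted p 0.0111 to 0.112), and the log2 fold change was -0.02 with the acinar marker level as a covariate.

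Hspg2 and Nid2 gave another pattern, in which db/+ was the low group. Hspg2 (chromosome 4, 137468751 to 137570630), which encodes perlecan, had 146, 98.5 and 116 CPM in db/db, 48.5, 56.1 and 63.5 CPM in db/+, against 114, 96.4 and 138 CPM in WT. The db/+ libraries lay below all others, while db/db and WT overlapped (0.05 ± 0.17, adjusted p = 0.836). The log2 fold change was 1.10 ± 0.17, adjusted p = 0.000935, for db/db against db/+, and -1.05 ± 0.17, adjusted p = 0.0363, for db/+ against WT, in which no other of the 39 genes was called. That call ended without db/db 3, db/+ 1, db/+ 2, db/+ 3, WT 1 or WT 3 (range of adjusted p 0.00968 to 0.171), while the call against db/+ held with each library left out. Nid2, the second nidogen, had 18.4, 18.2 and 20.7 CPM in db/db, 14.8, 13.7 and 14.8 CPM in db/+, against 21.2, 20.05 and 18.1 CPM in WT. Here too db/+ was lowest, with a smaller difference (0.41 ± 0.11, adjusted p = 0.0116, against db/+, and -0.05 ± 0.11, adjusted p = 0.746, against WT). The Nid2 call against db/+ ended without db/db 3 or db/+ 2 (range of adjusted p 0.0127 to 0.0568). Between db/+ and WT its log2 fold change was -0.46 ± 0.11, adjusted p = 0.0608. Together, 8 of the 38 genes had every db/+ library below every WT library and 0 had every one above, against 10.4% and 12.1% of all tested genes.

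**Figure D2:**
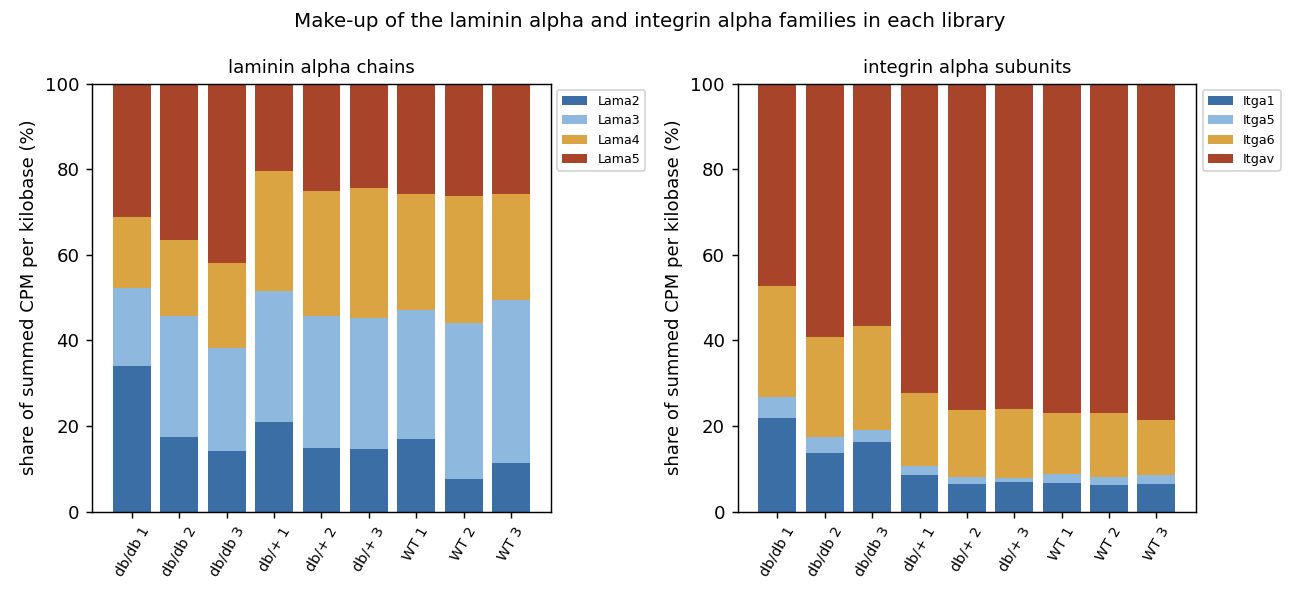
Share of each chain, in percent of summed CPM per kilobase of exon, within the 4 laminin alpha chains (left) and 4 integrin alpha subunits (right), for each library with db/db at the left of each panel, then db/+ and WT. The Lama5 share is 31.3% to 41.96% in db/db and 25.8% to 26.3% in WT, and the Itgav share is 47.3% to 59.2% in db/db and 77.01% to 78.7% in WT.

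Fibronectin and the matricellular proteins, which bind matrix and cells and are prominent in wound repair, were higher in db/db for 5 of 6 genes against WT and 5 of 6 against db/+. The shares of all tested genes were 21.8% and 20.6%. Fn1 (chromosome 1, 71585473 to 71653280) encodes fibronectin, the main ligand of the integrin made of the alpha 5 and beta 1 subunits. Its level was 50.9, 58.5 and 45.7 CPM in db/db, 1.21, 1.01 and 0.653 CPM in db/+, against 2.46, 10.02 and 1.32 CPM in WT. The db/db libraries were close to each other and far above the rest, and WT 2 was higher than the other WT libraries. The log2 fold change was 3.48 ± 0.56, adjusted p = 0.00282, against WT, which became 4.72 without WT 2, and 5.73 ± 0.70, adjusted p = 0.000795, against db/+. In the library counts Fn1 had 371, 472 and 424 in db/db, 15, 12 and 8 in db/+, and 31, 111 and 13 in WT.

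Thbs1 encodes thrombospondin-1, which inhibits vessel growth and activates latent TGF-beta. It had 368, 338 and 309 CPM in db/db, 126, 92.7 and 89.4 CPM in db/+, against 122, 111 and 119.1 CPM in WT. The libraries of each group agreed closely and the groups of db/db and WT did not overlap, with 1.53 ± 0.12, adjusted p = 1.19e-06, against WT and 1.72 ± 0.12, adjusted p = 4.77e-07, against db/+. Thbs2, a related thrombospondin, had 16.5, 4.46 and 18.2 CPM in db/db, 2.43, 1.69 and 1.22 CPM in db/+, against 3.49, 2.80 and 1.52 CPM in WT. It rose by 2.30 ± 0.52, adjusted p = 0.00719, against WT, with db/db 2 well below the other db/db libraries. Per kilobase of exon Thbs1 remained the main form, at 55.7 ± 4.79 CPM per kilobase in db/db against 2.201 ± 1.26 for Thbs2.

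Sparc, a collagen-binding glycoprotein, averaged 176 ± 71.1 CPM in db/db, 75.9 ± 15.02 CPM in db/+, against 76.4 ± 13.9 CPM in WT, and its relative Sparcl1, made by vascular cells, 142 ± 48.6 CPM in db/db, 64.1 ± 14.7 CPM in db/+, against 66.04 ± 7.68 CPM in WT. Both rose (1.20 ± 0.32, adjusted p = 0.0222, and 1.10 ± 0.27, adjusted p = 0.0144, against WT), with db/db 1 the highest library of each. The Sparc call ended without WT 2 or WT 3 (range of adjusted p 0.00413 to 0.0698), and the Sparcl1 call without WT 3 (range of adjusted p 0.00312 to 0.0522). Against db/+ the log2 fold changes were 1.21 ± 0.32, adjusted p = 0.0218, and 1.14 ± 0.27, adjusted p = 0.0124, and the Sparc call ended without db/+ 2 or db/+ 3 (range of adjusted p 0.00401 to 0.0724). Tnc, which encodes tenascin-C, a protein of embryonic and wounded tissue, was by far highest in db/db 3. It stood at 4.80, 2.35 and 31.6 CPM in db/db, 1.86, 0.844 and 0.326 CPM in db/+, against 3.73, 1.72 and 0.203 CPM in WT and did not pass (2.74 ± 1.21, adjusted p = 0.119, against WT). Without db/db 3 the log2 fold change was 0.87. Tnc was chosen for these per-library values after they were seen.

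**Figure D3:**
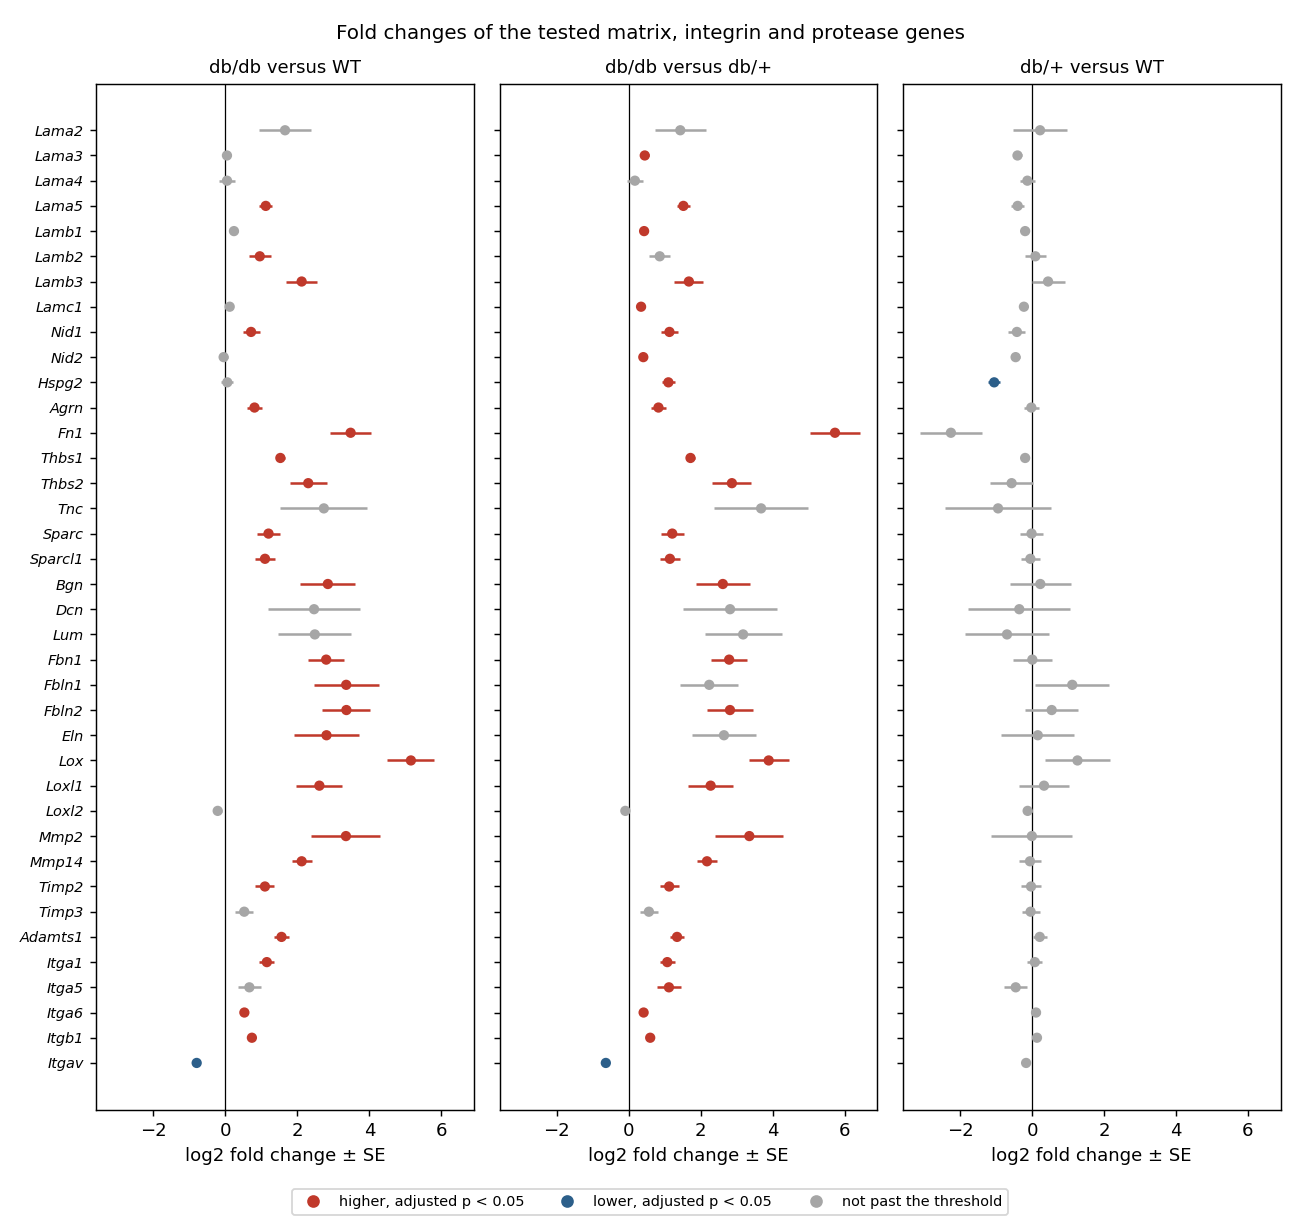
Log2 fold change ± SE of each of the 38 tested genes in the 3 comparisons, with red points higher, blue points lower and grey points not past an adjusted p of 0.05. In both db/db comparisons most points lie right of 0 and Itgav lies left of it, while for db/+ against WT Hspg2 is the single coloured point.

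The small leucine-rich proteoglycans coat collagen fibrils and regulate their assembly. Bgn (biglycan, X chromosome) had 71.9, 13.8 and 21.01 CPM in db/db, 9.78, 3.80 and 3.59 CPM in db/+, against 5.79, 4.70 and 4.06 CPM in WT. All db/db values were above all others, and db/db 1 was over 3 times either of the other db/db libraries. Its log2 fold change was 2.85 ± 0.77, adjusted p = 0.0258, against WT, and 1.83 without db/db 1 (adjusted p = 0.00974). The call against WT ended without WT 1, WT 2 or WT 3 (range of adjusted p 0.00974 to 0.0802), and the call against db/+ (2.62 ± 0.75, adjusted p = 0.0325) without any WT library, db/+ 2 or db/+ 3 (range of adjusted p 0.0166 to 0.101). Against db/+, it was 1.61 without db/db 1 and 3.24 without db/+ 1. Dcn (decorin) and Lum (lumican), given by library after their values were seen, varied within every group. Dcn had 126, 10.5 and 20.3 CPM in db/db, 16.2, 1.94 and 3.67 CPM in db/+, against 16.7, 9.48 and 1.02 CPM in WT; Lum had 28.7, 4.46 and 9.81 CPM in db/db, 3.23, 0.4219 and 0.979 CPM in db/+, against 5.16, 1.54 and 0.61 CPM in WT. Each had db/db 1 highest and overlapped between db/db and WT, and neither passed (2.46 ± 1.29, adjusted p = 0.177, for Dcn and 2.48 ± 1.01, adjusted p = 0.0952, for Lum, against WT). Without db/db 1 the log2 fold changes were 0.74 for Dcn and 1.504 for Lum.

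Elastic fibres are built on fibrillin, elastin and fibulins and are crosslinked by lysyl oxidases. Of 7 such genes, 6 were higher in db/db than in WT and 4 higher than in db/+, with a median log2 fold change of 2.81 against WT. The shares of all tested genes called higher were 21.8% and 20.6%. Fbn1, which encodes fibrillin-1 of the microfibrils that scaffold elastin, had 101, 32.8 and 60.02 CPM in db/db, 13.4, 7.09 and 7.26 CPM in db/+, against 12.6, 7.40 and 7.31 CPM in WT. Every db/db library was higher than every other, with 2.80 ± 0.50, adjusted p = 0.00474, against WT and 2.79 ± 0.50, adjusted p = 0.00484, against db/+. Fbln2 (fibulin-2), which joins fibrillin to basement membranes, had 49.9, 14.2 and 22.5 CPM in db/db, 6.55, 2.78 and 2.86 CPM in db/+, against 4.44, 2.35 and 1.32 CPM in WT, also without overlap. Its log2 fold change was 3.36 ± 0.66, adjusted p = 0.00675, against WT and 2.81 ± 0.63, adjusted p = 0.0115, against db/+, and 2.72 and 2.19 without db/db 1.

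Lox encodes lysyl oxidase, the enzyme that crosslinks collagen and elastin. It was nearly undetected outside db/db, with 39, 19 and 57 counts in db/db, 6, 1 and 4 counts in db/+, and 3, 1 and 0 counts in WT. In CPM this is 5.35, 2.35 and 6.14 in db/db, 0.485, 0.0844 and 0.326 in db/+ and 0.238, 0.0903 and 0 in WT. Lox could pass the count filter only through its db/db libraries, so its entry to the test depended on the group in which it is high. The calls passed against WT (adjusted p = 3.5e-05) and db/+ (adjusted p = 0.000103), but the fitted log2 fold changes of 5.15 ± 0.65 and 3.89 ± 0.55 rest on these low counts. Without WT 1 the first was 6.27. Loxl1, the lysyl oxidase most tied to elastic fibres, averaged 7.68 ± 6.60 CPM in db/db, 1.56 ± 0.687 CPM in db/+, against 1.21 ± 0.54 CPM in WT and rose (2.61 ± 0.64, adjusted p = 0.00989, against WT). Without db/db 1 the Loxl1 value was 1.66 against WT and 1.34 against db/+, and its call against db/+ (2.28 ± 0.62, adjusted p = 0.0163) ended without db/+ 2 or db/+ 3 (range of adjusted p 0.00258 to 0.0652). Loxl2, which acts on type IV collagen of basement membranes, averaged 19.97 ± 2.48 CPM in db/db, 21.4 ± 0.969 CPM in db/+, against 23.3 ± 1.51 CPM in WT and did not pass (-0.22 ± 0.11, adjusted p = 0.144, against WT).

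Eln, the elastin gene, had 32.5, 4.09 and 6.79 CPM in db/db, 3.72, 1.69 and 1.39 CPM in db/+, against 3.09, 1.26 and 1.63 CPM in WT. The db/db libraries lay above the others, db/db 1 by far, and the log2 fold change was 2.81 ± 0.91, adjusted p = 0.0466, against WT, and 1.43 without db/db 1. The Eln call ended without any single db/+ or WT library (range of adjusted p 0.0177 to 0.128), and it did not pass against db/+ (2.65 ± 0.89, adjusted p = 0.0542), though it did without db/db 1 (log2 fold change 1.27) or db/db 2. Fbln1 (fibulin-1) had 9.33, 0.991 and 2.05 CPM in db/db, 1.46, 0.675 and 0.408 CPM in db/+, against 0.555, 0.361 and 0.203 CPM in WT, near the detection limit in WT. Like Lox, Fbln1 could pass the count filter only with its db/db libraries, the group in which it is high. It rose by 3.36 ± 0.91, adjusted p = 0.0159, against WT, by 1.97 without db/db 1, and lost the call without WT 2 or WT 3 (range of adjusted p 0.00231 to 0.0596). Against db/+ it just missed the threshold (2.24 ± 0.80, adjusted p = 0.0513), passing without db/db 2, db/db 3 or db/+ 1, and the log2 fold change was 0.86 without db/db 1 (adjusted p = 0.236).

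**Figure D4:**
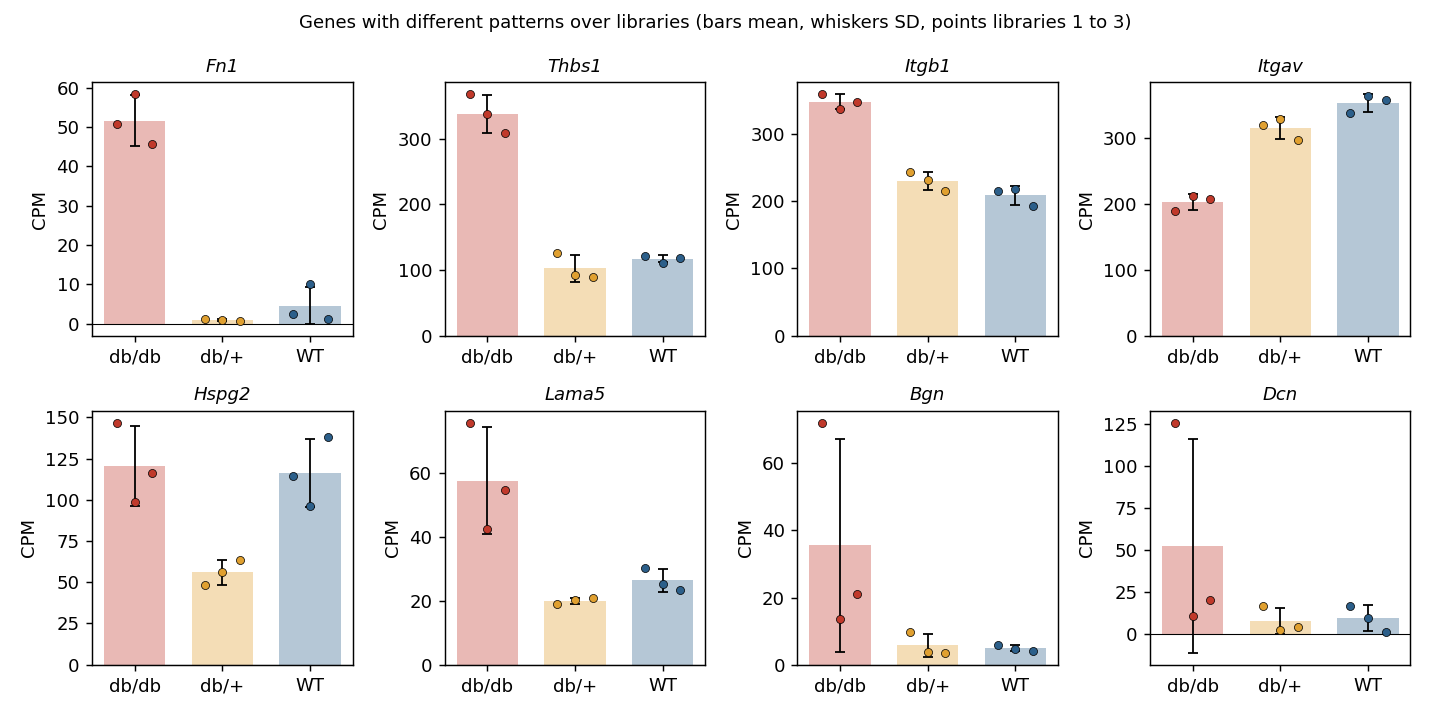
CPM of 8 genes that represent the patterns described, with db/db left of db/+ and WT in each panel. Bars are group means, whiskers are SD (n = 3) and points are libraries 1 to 3 from left to right; Fn1, Thbs1 and Itgb1 are even over the db/db libraries, Bgn and Dcn are highest in db/db 1, Hspg2 is lowest in db/+, and Itgav is lowest in db/db.

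Among matrix proteases and their inhibitors, 4 of 5 tested genes were higher in db/db against WT and 4 against db/+. The shares of all tested genes were 21.8% and 20.6%. Mmp14 encodes the membrane-bound metalloproteinase MT1-MMP, which cleaves fibrillar collagen and activates the MMP2 proenzyme with the help of TIMP-2. It had 22.4, 9.54 and 17.7 CPM in db/db, 4.37, 3.37 and 3.18 CPM in db/+, against 4.52, 3.52 and 3.25 CPM in WT. The groups did not overlap, and the log2 fold change was 2.12 ± 0.28, adjusted p = 8.21e-05, against WT and 2.18 ± 0.28, adjusted p = 6.77e-05, against db/+. Mmp2, the gelatinase it activates, averaged 7.94 ± 5.75 CPM in db/db, 0.757 ± 0.813 CPM in db/+, against 0.746 ± 0.388 CPM in WT. It rose by 3.35 ± 0.96, adjusted p = 0.0257, against WT, and the call ended without db/db 1 (log2 fold change 2.76), db/db 3, or any WT library (range of adjusted p 0.005 to 0.0837). Against db/+ the Mmp2 value of 3.35 ± 0.95, adjusted p = 0.0251, became 4.52 without db/+ 1, and the call ended without db/db 1, db/db 3 or db/+ 3 (range of adjusted p 0.0049 to 0.0873).

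Adamts1, a secreted protease of versican and other proteoglycans, had 193, 147 and 131 CPM in db/db, 77.5, 52.1 and 55.6 CPM in db/+, against 61.97, 48.04 and 49.4 CPM in WT. Every db/db library was above every other, with 1.56 ± 0.20, adjusted p = 0.000319, against WT and 1.34 ± 0.19, adjusted p = 0.000743, against db/+. Timp2, an inhibitor that also takes part in MMP2 activation, had 48.4, 24.5 and 25.6 CPM in db/db, 18.3, 14.1 and 12.6 CPM in db/+, against 17.1, 13.9 and 14.7 CPM in WT. It rose by 1.10 ± 0.26, adjusted p = 0.00921, against WT and 1.12 ± 0.26, adjusted p = 0.00829, against db/+, with db/db 1 the highest. Timp3, the matrix-bound inhibitor, averaged 165 ± 53.3 CPM in db/db, 112 ± 27.5 CPM in db/+, against 115 ± 10.4 CPM in WT and did not pass (0.52 ± 0.25, adjusted p = 0.141, against WT). Leaving out db/db 3 moved it past the threshold (range of adjusted p 0.0457 to 0.349). Timp1, the inhibitor most often induced in wounded tissue, had 7, 10 and 14 counts in db/db, 5, 3 and 1 in db/+, and 4, 3 and 1 in WT, too few for the filter. Its CPM were 0.961, 1.24 and 1.51 in db/db, 0.404, 0.253 and 0.0816 in db/+ and 0.317, 0.271 and 0.102 in WT, without overlap between db/db and the others. In the 9 alternatives in which Timp1 entered the test (no filter, Gm42418 and Lars2 removed, and without db/db 1 or any single db/+ or WT library) it was called higher in db/db than in WT in 9 and than in db/+ in 9. These fits share libraries and are not independent tests. Where a filter was used, Timp1 could pass it only through its db/db counts. Timp1 and Timp3 lie inside the synapsin genes Syn1 and Syn3, Pelo lies inside Itga1, and Cep295nl lies inside Timp2. Their counts are uncertain in so far as reads of such partners were counted together, since no strand setting is given in the sources used here.

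Upstream sequences of a few genes that changed are shown because the question of shared motifs arises for genes that move together. RefSeq start sites (GRCm38.p6) were matched for 24 of the 39 genes, and 250 bases before the start were searched on both strands. The following 250 bases precede the starts of Mmp14 and Adamts1, risen protease genes of this group, with GC boxes (GGGCGG) and, in Adamts1, a TATA box (TATAAA) in capitals, 5′ to 3′.
Mmp14 (chr14:54431348-54431597, plus strand): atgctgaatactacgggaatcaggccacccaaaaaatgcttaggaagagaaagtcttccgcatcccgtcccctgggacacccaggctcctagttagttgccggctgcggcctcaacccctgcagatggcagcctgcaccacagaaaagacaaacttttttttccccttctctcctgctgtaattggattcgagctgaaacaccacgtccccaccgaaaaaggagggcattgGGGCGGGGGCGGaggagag
Adamts1 (chr16:85803114-85803363, minus strand): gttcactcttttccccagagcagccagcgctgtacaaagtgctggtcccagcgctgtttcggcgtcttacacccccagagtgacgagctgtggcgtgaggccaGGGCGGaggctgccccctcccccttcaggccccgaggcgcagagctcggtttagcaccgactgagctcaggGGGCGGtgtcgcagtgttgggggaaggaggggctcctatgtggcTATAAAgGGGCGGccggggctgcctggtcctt

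In Adamts1 the TATA box match begins 32 bases before the start, and GC boxes begin 147, 76 and 25 bases before it. In Mmp14 adjacent GC boxes begin 19 and 13 bases before the start, and no TATA box match was found in this window. Over the 24 genes, 16 had a GC box (66.7%), against 58.5% of the promoters of tested genes and 32.9% of all 27025 promoters in the table. A TATA box was found in 3 of 24 (12.5%; Thbs2, Tnc and Adamts1), against 6.45% and 13%. The TEAD motif GGAATG was in 3 of 24 (12.5%; Nid1, Timp1 and Itgb1), against 10.6% and 12.6%. The CArG box was in 1 (Lama2, 39 bases before the start), against 1.17% and 1.4%. The AP-1 motif TGANTCA and the CRE motif TGACGTCA were in 0 of the 24 windows, against 4.19% and 2.78% of the promoters of tested genes. A match is a run of letters only, and no binding was measured.

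Integrin subunits went in both directions. Of 5 subunits, 3 were higher and 1 lower in db/db than in WT, and 4 higher and 1 lower than in db/+. Among all tested genes, 21.8% were higher and 19.9% lower than in WT, and 20.6% and 19.7% than in db/+. A count of 1 lower gene of 5 is thus near the share of all tested genes. Itgb1 (chromosome 8, 128685654 to 128733579), the beta 1 subunit that pairs with alpha 1, alpha 5, alpha 6 and alpha v among others, had 358, 336 and 347 CPM in db/db, 243, 231 and 215 CPM in db/+, against 215, 218 and 192 CPM in WT. The libraries within each group were close together and db/db did not overlap the others (0.74 ± 0.08, adjusted p = 7.1e-06, against WT and 0.60 ± 0.08, adjusted p = 4.64e-05, against db/+). Itgav (chromosome 2, 83722303 to 83806917), the alpha v subunit of receptors for fibronectin and vitronectin, moved the other way, with 189, 211 and 208 CPM in db/db, 319.8, 329 and 297 CPM in db/+, against 338, 363 and 358 CPM in WT. All db/db libraries were below all others, and the log2 fold change was -0.80 ± 0.08, adjusted p = 2.99e-06, against WT and -0.64 ± 0.08, adjusted p = 2.31e-05, against db/+. Both calls of Itgb1 and both of Itgav held with each library left out and in every other alternative tried.

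Among the alpha subunits, Itga6 and Itga1 rose. Itga6, of the laminin receptors, had 86.4, 69.9 and 74.8 CPM in db/db, 63.1, 56.8 and 53.3 CPM in db/+, against 51.97, 59.1 and 49.2 CPM in WT, with 0.53 ± 0.10, adjusted p = 0.00098, against WT and 0.41 ± 0.10, adjusted p = 0.00494, against db/+. Itga1, of a collagen and laminin receptor of mesenchymal and endothelial cells, had 65.3, 36.3 and 44.5 CPM in db/db, 28.5, 20.4 and 20.3 CPM in db/+, against 21.9, 21.8 and 21.9 CPM in WT. It did not overlap between db/db and the others (1.15 ± 0.21, adjusted p = 0.00158, against WT and 1.07 ± 0.21, adjusted p = 0.00238, against db/+). Itga5, of the classical fibronectin receptor, was low, at 7.96, 5.57 and 4.31 CPM in db/db, 3.72, 3.04 and 1.39 CPM in db/+, against 3.97, 3.52 and 3.66 CPM in WT. Every db/db library was above every WT library, but Itga5 did not pass against WT (0.66 ± 0.32, adjusted p = 0.107). It passed against db/+ (1.12 ± 0.32, adjusted p = 0.0138), a call that ended without db/db 1 (range of adjusted p 0.00849 to 0.0507). Within the 4 alpha subunits, Itgav held 54.4 ± 6.25% of the CPM per kilobase in db/db, 74.8 ± 2.198% in db/+ and 77.6 ± 0.953% in WT. Itga6 held 24.4 ± 1.26% in db/db, 16.3 ± 0.664% in db/+ and 13.97 ± 1.04% in WT, and Itga1 17.3 ± 4.26% in db/db, 7.33 ± 1.19% in db/+ and 6.46 ± 0.247% in WT. Itgav remained the largest share in every library, and its db/db shares did not overlap the others. Over all 39 genes, Itgb1 had the highest level per kilobase, 85.1 ± 2.69 CPM per kilobase in db/db, 56.3 ± 3.42 in db/+ and 51.1 ± 3.45 in WT.

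The upstream sequences of this pair that changed in opposite directions are shown for comparison, with a TEAD motif (GGAATG, 7 bases before the start) and a GC box (151 bases before it) of Itgb1 in capitals. Itgav has none of the motifs searched in this window, which lies within the annotated span of the gene.
Itgb1 (chr8:128685404-128685653, plus strand): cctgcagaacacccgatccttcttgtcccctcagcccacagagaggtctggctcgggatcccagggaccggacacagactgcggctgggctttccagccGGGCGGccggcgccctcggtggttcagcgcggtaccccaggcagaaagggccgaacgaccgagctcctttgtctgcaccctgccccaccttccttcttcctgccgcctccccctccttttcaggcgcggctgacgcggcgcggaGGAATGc
Itgav (chr2:83724147-83724396, plus strand): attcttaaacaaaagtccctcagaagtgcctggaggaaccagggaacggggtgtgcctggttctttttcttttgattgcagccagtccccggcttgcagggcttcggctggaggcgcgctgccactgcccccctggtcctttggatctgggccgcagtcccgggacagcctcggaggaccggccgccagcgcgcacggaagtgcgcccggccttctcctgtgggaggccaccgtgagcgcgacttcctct

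The db/db libraries did not contribute equally. For 31 of the 39 genes db/db 1 was the highest of the 3 db/db libraries, and its level was at least 2 times the mean of db/db 2 and db/db 3 for 11 of them, with a median ratio of 1.62 over the 39. The shares of all tested genes that did so were not counted, so these counts cannot be told apart from a trait of the whole library. The ratio was 8.17 for Dcn, 6.14 for Fbln1, 5.98 for Eln, 4.26 for Lama2, 4.14 for Bgn and 4.02 for Lum, genes often made by fibroblasts and smooth muscle. It was 0.978 for Fn1, 1.05 for Itgb1, 1.14 for Thbs1, 0.901 for Itgav and 0.945 for Nid2, so these levels were nearly even over the db/db libraries. The same ratio was 1.44 for the summed stellate, fibroblast and pericyte markers, 1.396 for the endothelial markers and 2.74 for the acinar markers. For the sums of other lists it was 15.6 for lymphocyte, 1.62 for macrophage and 0.997 for duct markers. Rgs5, with a ratio of 1.24, made up most of the sum of stellate, fibroblast and pericyte markers, and the ratio was 1.83 without it. Over the 17 tested markers of that list it was 1.12 to 7.08 with a median of 1.72. The highest ratios of that list were 7.08 for Pdgfra, 4.95 for Dpt, 3.94 for Pi16, 3.85 for Thy1 and 3.36 for Prrx1. These markers were named after their ratios were seen, and no fibroblast subset was set beforehand. Whether fibroblast content has a part in the high levels of db/db 1 was not tested. Lox, Loxl2, Nid2, Thbs2, Tnc and Timp1 were highest in db/db 3, and Fn1 and Itgav in db/db 2.

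**Figure D5:**
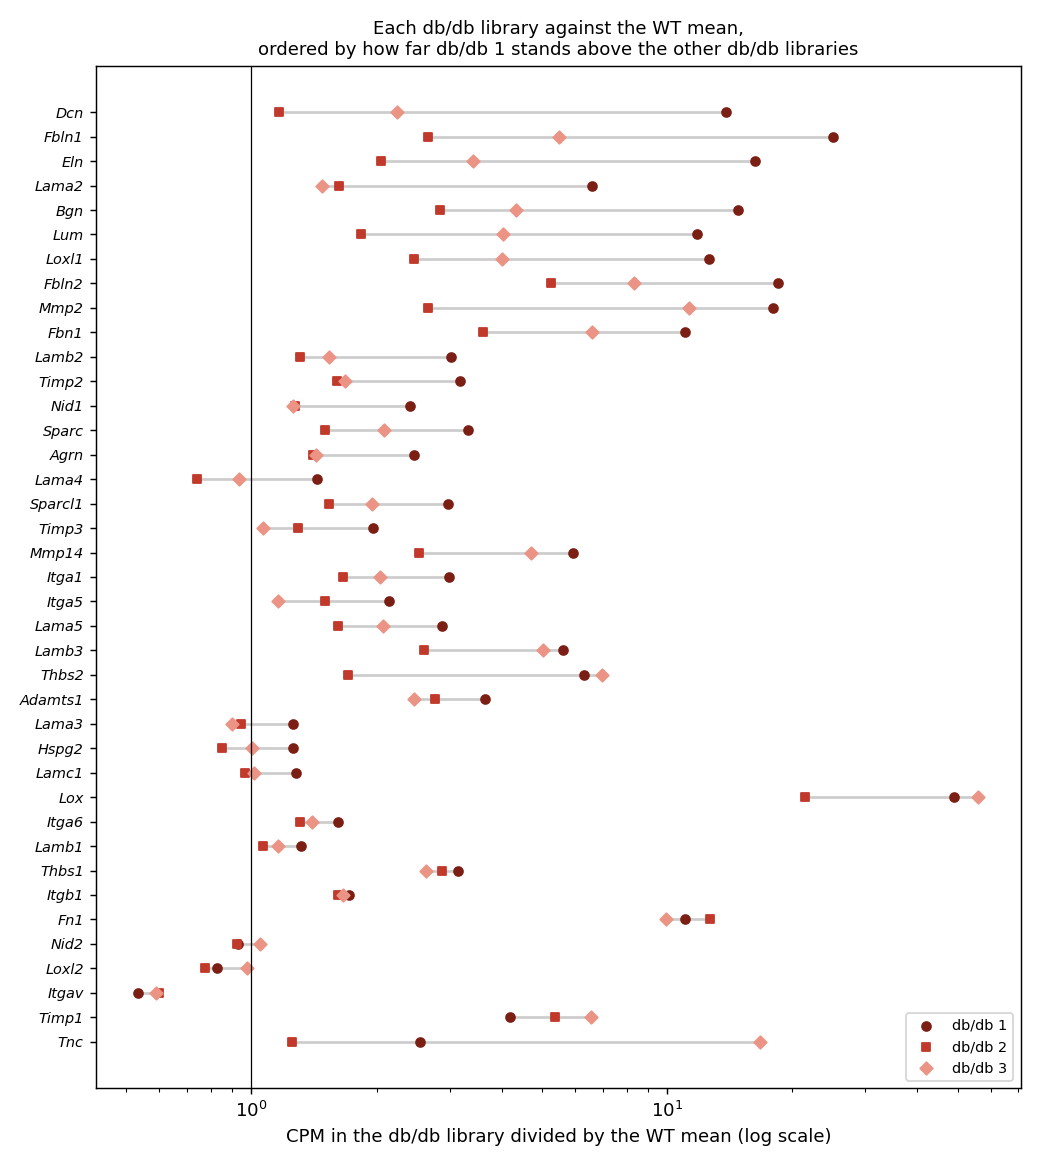
CPM in each db/db library divided by the WT mean (log axis), with genes ordered from the top by the ratio of db/db 1 to the mean of db/db 2 and db/db 3. Dcn, Fbln1 and Eln spread widely with db/db 1 to the right, whereas Thbs1, Itgb1, Fn1 and Itgav have their 3 db/db points close together.

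Without db/db 1, 39 genes were tested, since Timp1 then passed the filter. Of these, 24 were higher and 1 lower in db/db than in WT, against 20.2% and 18.1% of all tested genes. Relative to the calls made on all libraries, 24 were shared, Mmp2 was lost and Timp1 was added. The median log2 fold change was 0.84. Against db/+ the counts without db/db 1 were 27 and 1, against 18.9% and 16.8% of all tested genes. Over all 9 left-out libraries, 17 of the 25 calls against WT and 21 of the 28 against db/+ held every time. The share of all called genes that held every time was not counted. With the mean acinar marker level as a covariate, 5 of the 38 genes remained higher than WT (Adamts1, Itgb1, Lox, Mmp14 and Thbs1) and Itgav remained lower, against 11.2% higher and 8.74% lower among all tested genes. The count was thus close to the background, and the median log2 fold change of the 38 was 0.52, against 1.17 without the covariate. This level was 8.32 to 9.70 in db/db, 7.74 to 8.88 in db/+ and 6.71 to 7.54 log2 CPM in WT, so acinar content and genotype cannot be told apart in the comparison with WT. With the same covariate 23 genes were higher than db/+, where acinar content overlapped, against 18.7% of all tested genes. Another covariate was the log2 of the summed Y-linked CPM plus 1. With it 29 genes were higher than WT and 33 higher than db/+, against 16.1% and 14.9% of all tested genes. The log2 Y-linked level was 7.47, 1.08 and 0.148 in db/db, 7.78 to 8.42 in WT and 8.55 to 8.71 in db/+. No db/db library overlapped the other groups, so Y-linked level and genotype cannot be told apart. These counts are therefore not a correction for sex.

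Matrix genes outside the 39 were examined in 4 lists. Of 20 tested basement membrane genes, 11 were higher and 2 lower in db/db than in WT, against 21.8% and 19.9% of all tested genes. Smoc1, a secreted calcium-binding protein of basement membranes, had 55.3, 43.98 and 51.9 CPM in db/db, 2.83, 2.28 and 2.94 CPM in db/+, against 3.41, 3.25 and 2.13 CPM in WT, with no overlap (4.08 ± 0.17, adjusted p = 1.73e-09, against WT). Frem2, a membrane-linked matrix protein, averaged 16.2 ± 1.73 CPM in db/db, against 2.72 ± 0.597 CPM in WT (2.56 ± 0.21, adjusted p = 8.27e-07). Fras1, with which FREM2 forms a complex at epithelial basement membranes, fell to 37.8 ± 9.26 CPM in db/db, against 117 ± 20.99 CPM in WT (-1.64 ± 0.20, adjusted p = 0.00025). Npnt, which encodes the integrin ligand nephronectin, fell by 0.85 (adjusted p = 0.00147).

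Of 32 tested matricellular, proteoglycan and elastic fibre genes, 18 were higher and 2 lower, against 21.8% and 19.9% of all tested genes. The proteoglycan gene Bcan, best known from brain, averaged 5.61 ± 1.03 CPM in db/db, against 0.267 ± 0.083 CPM in WT (4.33 ± 0.41, adjusted p = 2.74e-06), and the calcification inhibitor gene Mgp 51.2 ± 22.6 CPM in db/db, against 10.95 ± 0.753 CPM in WT (2.21 ± 0.30, adjusted p = 0.000551). Spock1 (-0.57 ± 0.14, adjusted p = 0.00658) and Fbln7 (-1.67 ± 0.52, adjusted p = 0.0193) fell, Fbln7 with overlap between the groups. Of 36 tested proteases and inhibitors, 19 were higher and 3 lower, against the same 21.8% and 19.9%. Plaur, the urokinase receptor, averaged 11.5 ± 3.69 CPM in db/db, against 1.35 ± 0.284 CPM in WT (3.06 ± 0.32, adjusted p = 5.6e-06), and the membrane protease gene Adam15 rose by 1.01 ± 0.12, adjusted p = 1.28e-05. Hpse, the heparanase that cleaves heparan sulphate chains, fell to 1.16 ± 0.919 CPM in db/db, against 4.96 ± 0.688 CPM in WT (-2.14 ± 0.42, adjusted p = 0.00131), and Mmp16 fell by 1.20 (adjusted p = 0.00295). Of 17 other tested integrin subunits, 8 were higher than in WT, and 14 were higher than in db/+. The shares of all tested genes were 21.8% and 20.6%. Itga7, of a laminin receptor of muscle, rose by 1.05 ± 0.17, adjusted p = 0.000277, against WT, and Itgb5, a partner of alpha v, by 0.60 ± 0.10, adjusted p = 0.00038. Between db/+ and WT, 1 of the 131 tested genes of these lists and of the integrin adhesion complex was called, as lower. This is near the share of all tested genes called lower, 0.82%. The gene was Tnr, which encodes tenascin-R, with 126, 121 and 127 CPM in db/+, against 230.0, 155 and 268 CPM in WT (-0.80 ± 0.16, adjusted p = 0.0444).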

How the data were processed

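Total RNA from islets (Trizol extraction, Ribo-Zero Gold depletion of ribosomal RNA, per the labels' protocols) was sequenced in 9 libraries. The authors deposited a table of raw counts per gene symbol, and per the submitters' processing notes bcl2fastq 2.20.0.422 and TopHat2 2.0.14 were used with mm10. The sources used here name no counting program, annotation or strand setting. The table has 1 column that matches no labelled sample and was not used.

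Counts were filtered with filterByExpr and tested with edgeR 4.0.16 (R 4.3.3) using TMM factors and robust quasi-likelihood F tests. All 9 libraries entered 1 fit with a term per group (6 residual degrees of freedom, common biological coefficient of variation 0.129), and p values were adjusted by Benjamini-Hochberg over 16826 genes. The SE is the absolute log2 fold change divided by the square root of F. On simulated data with known answers the fit gave the right directions, but false calls exceeded the nominal rate in each comparison and most of the small changes were missed. Exon lengths are unions of the exons of GENCODE M1, and positions are RefSeq's. Depth covers counting error only, with a 3-count floor of 0.238 to 0.412 CPM. RNA extraction or sequencing batches are not labelled; the first letter of the sample title was used as a possible one.

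The 39 genes, the other lists and the tests were chosen with earlier results of these data known. Values by library are given, within each role, for the 3 risen and 2 fallen genes with the smallest adjusted p in db/db versus WT, for genes called in db/+ versus WT, and for genes whose call differs between the 2 db/db comparisons. Alternatives were DESeq2 size factors, library totals, 2 other filters, DESeq2 1.42.0, limma-voom (limma 3.58.1), fits of only the compared groups, covariates for title letter, acinar markers and Y-linked genes, removal of Gm42418 and Lars2, and each library left out. A correction for exon length was added after seeing the data.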

Additional observations from a re-analysis of the deposited data

How the results depend on the processing

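The number of genes higher in db/db than in WT was 24 and ranged from 17 to 24 with a library left out. In those fits 18% to 21.6% of all tested genes were higher. The number was 12 with the title letter as a covariate, when 12.9% of all tested genes were higher, and 5 with acinar markers, when 11.2% were, against 21.8% with neither. Against db/+ it was 27 and ranged from 23 to 32 with a library left out, when 16.2% to 20.5% of all tested genes were higher. This number was 6 with the title letter (5.98% of all tested genes, against 20.6%), which all db/db libraries share with WT 3 alone. Nid1 in db/db against WT reversed with acinar markers (log2 fold change -0.019, adjusted p = 0.97). Library totals gave 2 lower genes against WT, moved the median of all genes by -0.22, and called 2176 of all genes higher and 5317 lower, against 3670 and 3348 with TMM; against db/+ these were 2011 and 5265, against 3459 and 3314. The single lower gene in db/+ against WT became 3 without a filter, 3 in DESeq2, 3 in a fit of these 2 groups, 3 with Y-linked genes and 2 with acinar markers. It became 0 with the title letter and 0 with exon length correction, and ranged from 0 to 4 over left-out libraries. Among all genes, the same comparison called 102 higher and 138 lower, against 229 and 404 in DESeq2, 98 and 19 with acinar markers, 34 and 11 with the title letter, 29 and 9 with exon length correction, 23 and 0 without db/+ 1, 23 and 4 without db/+ 2 and 33 and 11 without WT 3. The cause of these changes was not tested. No other count of these genes called higher or lower moved by more than 1.5 times. The number with a positive fold change in db/+ against WT was 14, and 4 with acinar markers, 9 without db/+ 1 and 25 without WT 1. No paired analysis was run because the labels name no pairing of libraries between groups. Libraries are numbered within each group in the order of their sample titles. Lox, Timp1, Bcan and Fbln7 rest on few counts.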

Other observations

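Genes of the integrin adhesion complex, which couples integrins to actin inside the cell, were examined alongside the receptors. Of 26 tested genes, 8 were higher and 5 lower in db/db than in WT, and 10 higher and 4 lower than in db/+. Among all tested genes 21.8% were higher and 19.9% lower than in WT, and 20.6% and 19.7% than in db/+. The median log2 fold change against WT was 0.21, against 0.01 for all tested genes. Actn1, which encodes the actin crosslinker alpha-actinin-1, had 99.6, 91.9 and 98.7 CPM in db/db, against 55.5, 57.5 and 61.3 CPM in WT (0.74 ± 0.07, adjusted p = 3.99e-06, edgeR). Vcl, the vinculin gene, had 82.9, 76.2 and 78.4 CPM in db/db, against 49.5, 51.2 and 53.2 CPM in WT (0.63 ± 0.09, adjusted p = 0.000128). Both rose without overlap. Bcar1, which encodes the signalling scaffold p130Cas, had 53.7, 53.8 and 56.3 CPM in db/db, against 97.6, 98.97 and 86.7 CPM in WT (-0.79 ± 0.08, adjusted p = 6.33e-06). Tns3, a tensin that binds integrin tails, had 134, 119.5 and 119.5 CPM in db/db, against 186, 194 and 199 CPM in WT (-0.63 ± 0.08, adjusted p = 3.52e-05). These fell, also without overlap.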
